A study of Mus musculus with 175 samples.

Results

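The genes described here are 42 genes of DNA replication, measured in single progenitor cells of the mouse fetal liver. They were chosen by symbol, and all 42 listed symbols were found among the 49585 mouse features of the gene annotation. The measurements were raw read counts from a modified Smart-Seq2 protocol, a full-length cDNA method without molecular identifiers, so that PCR copies of a molecule count as separate reads. The cells came from E14.5 fetal livers of Runx1 reporter mice on a background of C57BL/6 crossed with ICR. The genotype is spelled Runx1 P1-GFP::P2-hCD4/+ in the protocol and Runx1 P2-GFP::P2-hCD4/+ in the genotype label. In these heterozygous mice, human CD4 reports transcription from the P2 promoter of Runx1, a transcription factor needed for blood formation, and carriage of the reporter is common to all groups.

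The 4 groups were megakaryocyte-erythroid progenitors (MEPs) and common myeloid progenitors (CMPs), each sorted into hCD4- cells, called P2-, and hCD4+ cells, called P2+. MEPs are the compartment from which red cells and megakaryocytes form, and CMPs were sorted as CD34+ cells with broader myeloid output. CMPs are labelled low or high, read here as P2- or P2+. A label of 1 P2- CMP names MEPs, but the cell stayed with the CMPs, as its other labels say. The livers of 2 litters were pooled before sorting, so a population is a single pool (1 sample) whose cells cannot serve as replicates. Comparisons are therefore given without p-values. After the study's cell filters, 56 P2- and 47 P2+ MEPs and 27 P2- and 42 P2+ CMPs remained.

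Before a cell divides it must copy its genome once. The origin recognition complex, with Cdc6 and Cdt1, loads the ring-shaped MCM helicase onto DNA, and Mcm10, Cdc45 and the GINS complex then turn it into a moving helicase. Primase and polymerase alpha start each strand, the clamp Pcna is set in place by the RFC loader and holds polymerases delta and epsilon on the template, and RPA coats single-stranded DNA. Ribonucleotide reductase, thymidylate synthase and thymidine kinase supply nucleotides, Fen1 and Lig1 process and join lagging-strand fragments, and CAF-1 (Chaf1a, Chaf1b) deposits histones on the new DNA. Many of these genes are known targets of E2F factors, which drive entry into S phase. Fetal liver progenitors are known to divide rapidly.

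Some promoters of these genes hold short words of sequence that the choice by symbol did not use. RefSeq promoters (build GRCm38.p6, 250 bases before to 50 bases after the start) were given for 35 of the 42 genes. Mcm4, Gins1, Gins2, Gins4, Prim2, Pole and Rfc2 had no entry. The words TTTCCCGC, TTTCGCGC, TTTGCCGC and TTTGGCGC, forms of the E2F motif, were searched on both strands. At least 1 word was present in 14 of the 35 promoters (40%), against 704 of 27025 promoters of all genes (2.61%) and 5.62% of 6427 promoters of genes that passed the gene filter used below. TTTCCCGC was present in 7 of the 35, TTTCGCGC in 6 and TTTGGCGC in 6, and TTTGCCGC was in none of them. A match describes letters and does not show a bound site. The 6 windows that follow are shown because they belong to genes whose values are given below and lie wholly before the RefSeq start and not wholly within a GENCODE exon, with 1 window where words overlap. Capitals mark the word, which is on the opposite strand where it begins with GC, and each is written 5′ to 3′ in the direction of its gene.

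Mcm5, chr8:75109345-75109374: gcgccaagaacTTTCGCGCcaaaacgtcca
Mcm6, chr1:128359797-128359826: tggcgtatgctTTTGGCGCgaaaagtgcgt
Mcm6, chr1:128359734-128359763: gattggacgggTTTGGCGCgaagtagctca
Pola1, chrX:93632275-93632304: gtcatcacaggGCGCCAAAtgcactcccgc
Orc1, chr4:108579416-108579445: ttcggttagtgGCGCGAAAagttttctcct
Cdc6, chr11:98908002-98908031: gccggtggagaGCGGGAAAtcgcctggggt

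In the GENCODE annotation of the same build, the windows of Mcm5, Mcm6 and Pola1 lie before the gene, that of Orc1 lies partly in its first exon and that of Cdc6 lies in an intron of a longer transcript. In Mcm5 and in the first window of Mcm6, a second word on the other strand overlaps the one in capitals.

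Levels are pooled counts per 1000000 reads (CPM), that is the reads of a gene in all cells of a population as a share of the reads of all mouse genes there. Intervals are exact 95% intervals and cover counting error only. A gene passed the gene filter with a read in at least 25% of the cells and a mean count of at least 1, which 8741 genes did. All 42 replication genes passed. The reads on mouse genes of a population summed to between 18334696 (P2- CMPs) and 36351033 (P2+ CMPs), and replication genes took between 136546 and 303165 of these. The sorted populations carried different lineage markers. Klf1, an erythroid factor, was at 478 and 243.5 CPM in P2- and P2+ MEPs and 87.4 and 4.59 CPM in P2- and P2+ CMPs, whereas Cd34 was at 0.03, 13.05, 274.3 and 541 CPM. Gp9, a platelet glycoprotein gene, had no read in P2- MEPs and was at 67.2, 37.5 and 39.6 CPM in the others. The macrophage gene C1qa had no read in any population.

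**Figure D1:**
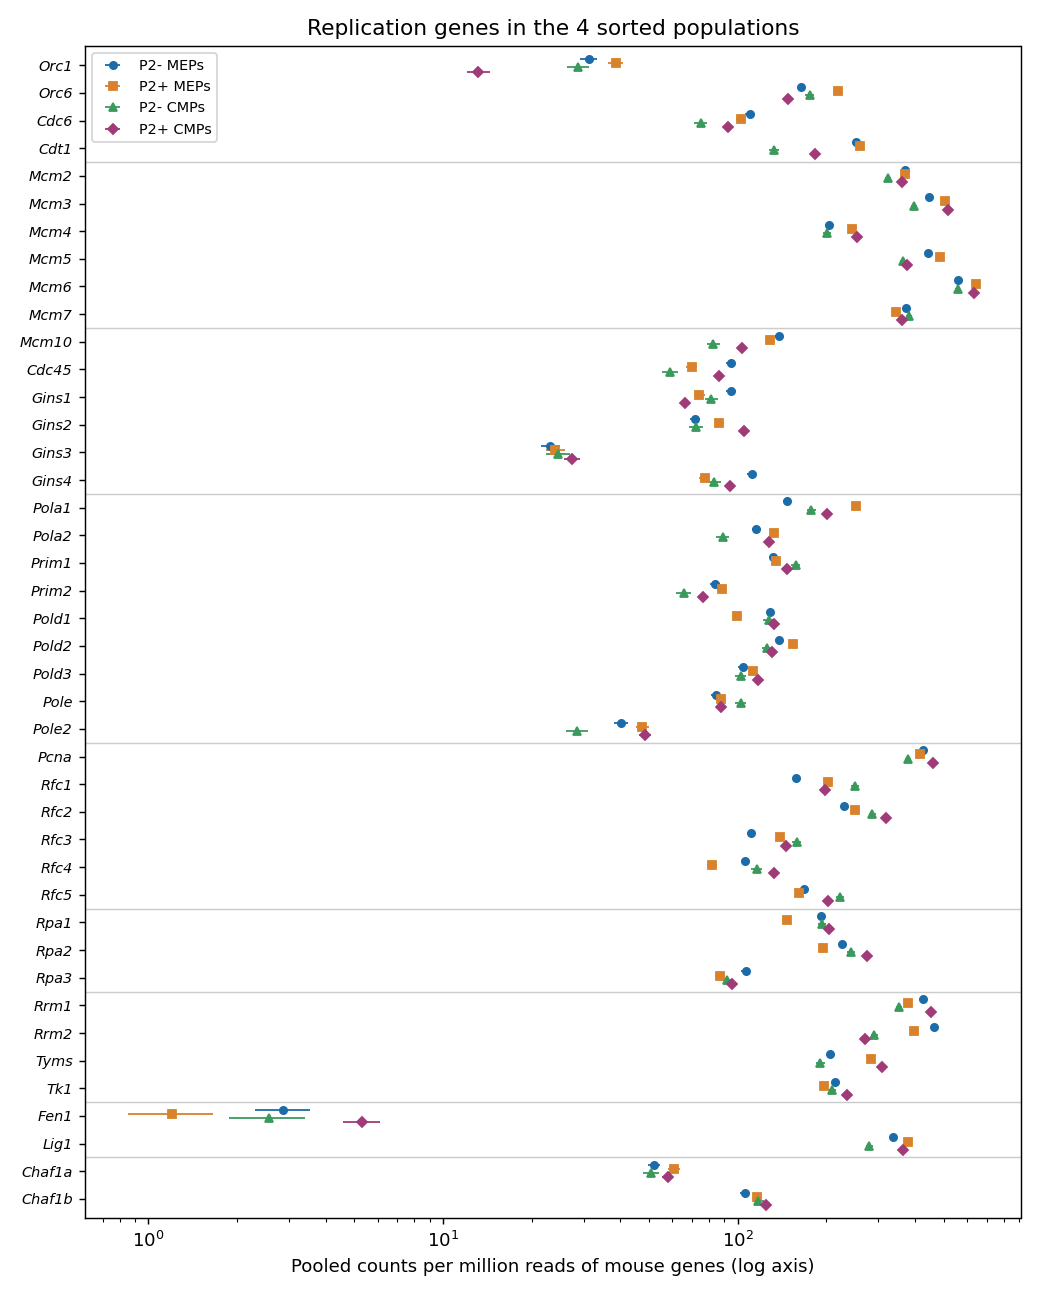
Pooled CPM of each replication gene (log axis) in the 4 populations, with 95% counting intervals as bars that are mostly smaller than the symbols. Genes are ordered by role, with lines between roles. For most genes the 4 symbols lie close together, while Fen1 and Orc1 are spread widest.

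Together, the 42 genes were at nearly the same level in the 4 populations. In MEPs their summed level was 7986 CPM in the P2- cells (95% interval, 7955 to 8018) and 8275 in the P2+ cells (8243 to 8307). In CMPs it was 7447 (7408 to 7487) and 8340 CPM (8310 to 8370). The highest sum, in P2+ CMPs, was 1.12 times the lowest, in P2- CMPs. For a single gene, the highest population value was a median of 1.38 times the lowest, with a range from 1.11 (Mcm7) to 4.41 (Fen1). Of the 42 genes, 31 (73.8%) varied by less than 1.5-fold over the populations, against 33.2% of all 8741 genes, whose median was 1.73. P2- CMPs held the lowest value for 19 of the 42 genes and P2+ CMPs the highest for 17. This was not counted over all genes, and P2- CMPs had the fewest cells and the fewest reads. The number of reads per cell and the number of cells differ between populations, and RNA content per cell cannot be told apart from a change of single genes on this scale.

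The MCM helicase was the most abundant set by summed CPM. Mcm6 was at 560.5 and 645 CPM in P2- and P2+ MEPs and 558 and 635 CPM in P2- and P2+ CMPs, and Mcm7 was at 371.4, 343.7, 381.8 and 360.2 CPM. Mcm2 was between 323.1 and 369.1 CPM, Mcm3 between 398 and 515, Mcm4 between 200.6 and 254.9, and Mcm5 between 364.9 and 485.6. None of the 6 MCM genes differed by 1.5-fold in any comparison. Of all genes, 25.4% did so between P2+ and P2- MEPs and 23.6% between P2+ and P2- CMPs. Between CMPs and MEPs it was 39.1% in P2- cells and 34.8% in P2+ cells. Mcm3, Mcm5, Mcm6, Pcna and Rrm1 had a read in every kept cell of all 4 populations once cells were thinned to 100000 mouse reads each.

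Levels of different genes were compared per kilobase of exon. Pcna, the sliding clamp, was the highest or among the highest of the 42, at 178 and 173 reads per kilobase and 1000000 reads in P2- and P2+ MEPs and 158 and 191 reads per kilobase and 1000000 reads in P2- and P2+ CMPs. Of 70-base words in its transcripts, 14.9% also occur in other transcripts, those of its processed copy Pcna-ps2, so that reads may have been split or left unassigned. Mcm6 was at 120, 138, 120 and 136 reads per kilobase and 1000000 reads, and Rrm2, the small subunit of ribonucleotide reductase, at 167, 143, 105 and 97.7. At the low end, the epsilon catalytic subunit gene Pole was between 7.57 and 9.16, Gins3 between 8.53 and 10.1, and Chaf1a between 5.74 and 6.86.

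The lowest was Fen1, the flap endonuclease gene, between 0.50 and 2.19 reads per kilobase and 1000000 reads. Fen1 lies at chr19:10199132-10204169 on the minus strand, and 84.2% of its exon bases overlap exons of Tmem258 or Gm10143 on the opposite strand. Counting disregarded strand and left a read that fell on 2 genes unassigned, and the part of this overlap in the low level of Fen1 was not tested. Gins2 overlaps likewise, with 67.3% of exon bases shared with Gse1, as does Chaf1a, with 52.5% shared with Ubxn6. Orc1 shared 10.8% with Gm12743 and Rfc4 12.7% with Eif4a2. In 29 of the 42 genes less than 1% of exon bases were shared.

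For the comparisons, a gene was called higher or lower when its pooled CPM differed by at least 1.5-fold. With 1 sample per population this is a rule of size and not a test, and the spread between cells can by itself carry a gene past it.

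Comparing P2+ with P2- MEPs asks how the megakaryocyte-biased cells of the MEP gate differ from the rest. The median log2 ratio of the 42 replication genes was 0.06, against 0.01 over all genes that passed the filter, and 25 of the 42 were above 0. Only Pola1 was called higher (1 of 42, against 16.4% of all genes) and only Fen1 was called lower (1 of 42, against 8.96%). In either direction 25.4% of all genes were called. Pola1, the catalytic subunit of polymerase alpha (chrX:93304767-93632155), was at 147 and 251.8 CPM in P2- and P2+ MEPs and 178 and 201 CPM in P2- and P2+ CMPs. The P2+ MEPs were thus 1.71-fold above the P2- MEPs (log2 ratio 0.77, interval 0.72 to 0.83), and 0.77 remained without the cell of highest CPM in each population. Per ERCC spike-in read, a scale described at the end, its log2 ratio was 0.16 and it was not called. Single P2- MEPs ranged from 0 to 529 CPM with a median of 122, and P2+ MEPs from 0 to 708 with a median of 208.1, so that the cells of both populations overlapped.

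The next highest log2 ratios in MEPs were those of Tyms (0.46), Orc6 (0.42), Rfc1 (0.36) and Rfc3 (0.32), all under the 1.5-fold rule. Fen1 had just 88 and 38 reads in P2- and P2+ MEPs (log2 ratio -1.26, interval -1.85 to -0.69). After it the lowest were Gins4 (-0.53), Cdc45 (-0.44), Rpa1 (-0.38) and Rfc4 (-0.37). By role, the summed log2 ratio was highest for polymerases and primase (0.19, interval 0.17 to 0.21) and lowest for the RPA genes (-0.29, interval -0.32 to -0.25). The sum of the polymerase and primase genes went from 974 to 1109 CPM between the P2- and P2+ cells, and most of this difference was that of Pola1. In the same comparison erythroid markers were lower by a log2 ratio of -0.71 in sum and megakaryocyte markers higher by 3.33. The erythroid markers did not all move alike. Of the 5 that passed the gene filter, 3 were called lower and 1, Hbb-bs, was called higher (log2 ratio 0.76, interval 0.68 to 0.84).

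**Figure D2:**
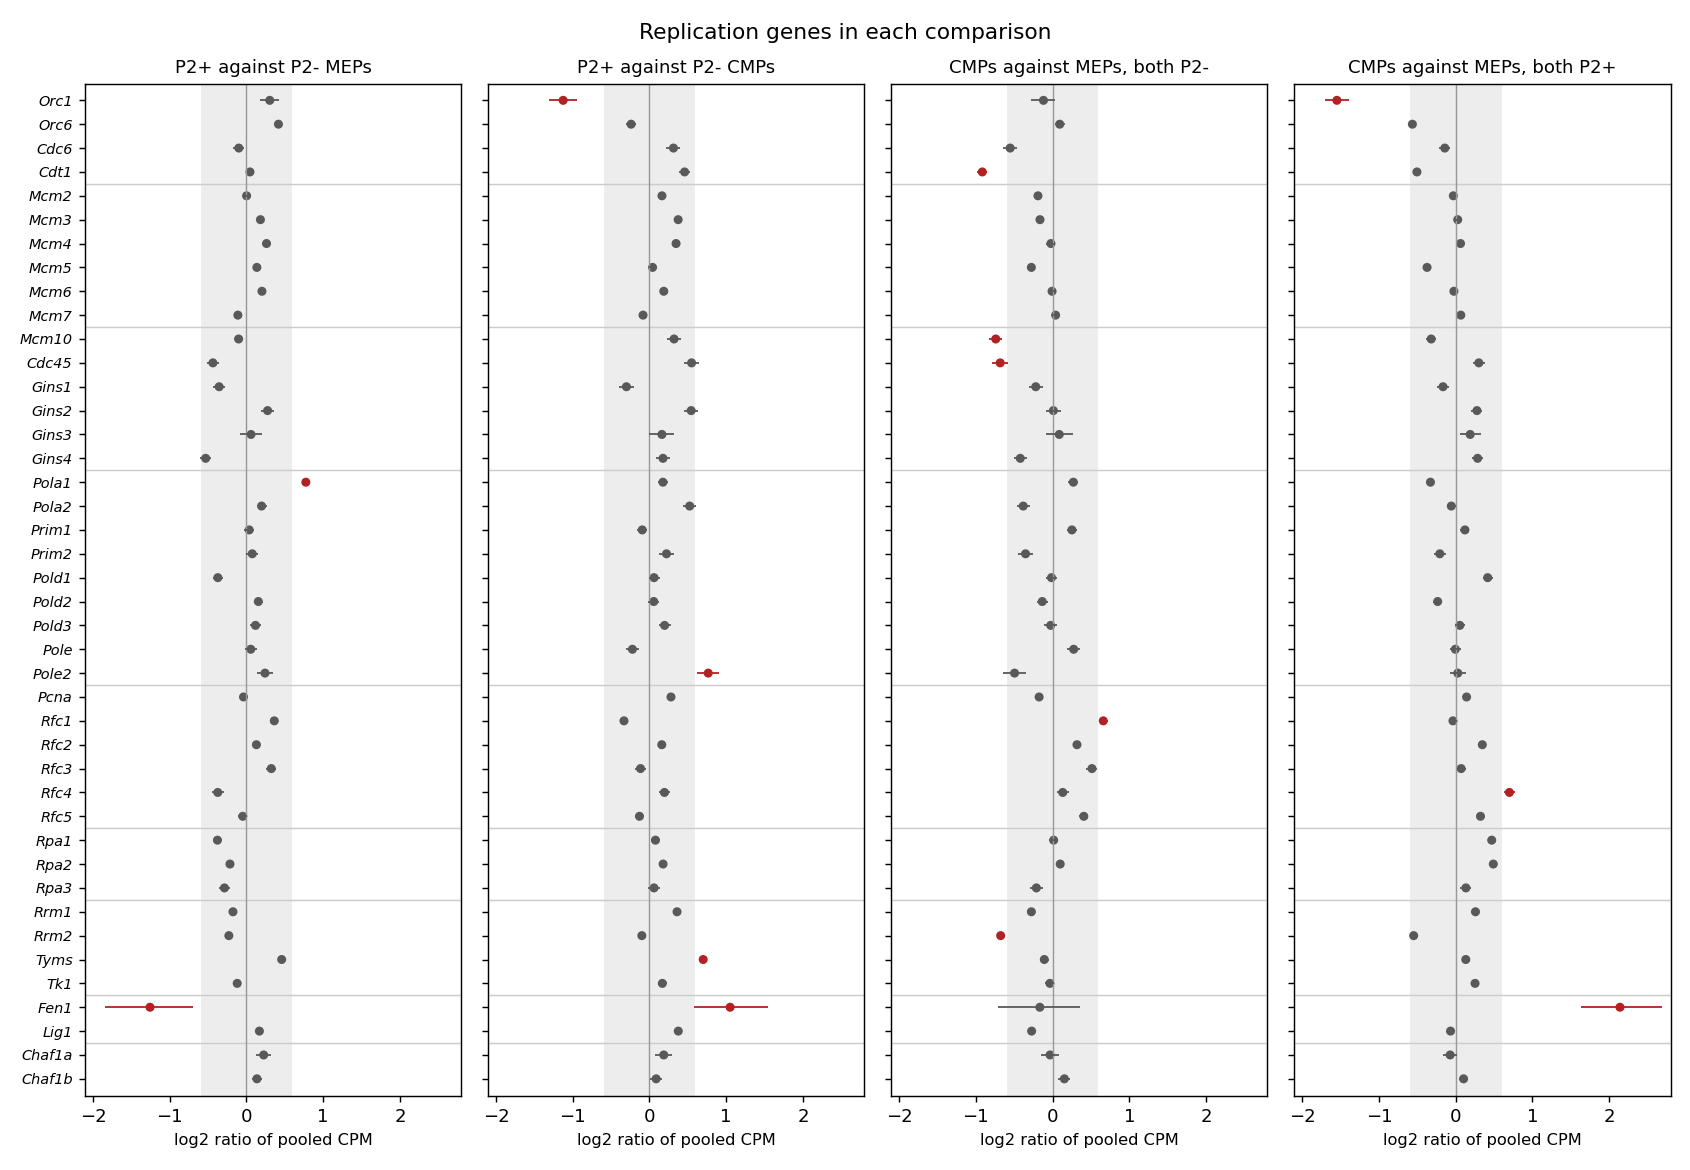
Log2 ratio of pooled CPM of each replication gene in the 4 comparisons, with 95% counting intervals as lines. The grey band spans 1.5-fold in both directions and red symbols lie outside it. Between 2 and 5 of the 42 genes lie outside the band in each comparison.

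P2+ CMPs, which the study examined for their multilineage output, were compared with P2- CMPs. The replication genes had a median log2 ratio of 0.18, against -0.03 over all genes, and 32 of the 42 were above 0. Their sum differed by a log2 ratio of 0.16 (interval 0.15 to 0.17), which is 1.12-fold. The summed level of 22 mitosis genes, such as Ccnb1, Aurka and Top2a, had a log2 ratio of -0.24 in the same comparison, and its part in the difference was not tested. Not all of the 22 were lower, and Aurka was at 100.6 CPM in P2- CMPs and 127.7 in P2+ CMPs. Fen1, Pole2 and Tyms were called higher (3 of 42, against 10.3% of all genes) and Orc1 lower (1 of 42, against 13.3%), and 23.6% of all genes were called in either direction. Tyms, which makes thymidylate (chr5:30058202-30073617), was at 191 CPM in P2- CMPs and 310 in P2+ CMPs, against 205 and 282.4 in P2- and P2+ MEPs. Its log2 ratio was 0.70 in CMPs (interval 0.64 to 0.75) and 0.46 in MEPs, and the difference between these was not tested. The median cell was at 179 CPM in P2- CMPs and 269.2 in P2+ CMPs, within ranges of 0 to 613 and 0 to 854. Pole2, an accessory subunit of polymerase epsilon, was at 28.5 CPM in P2- CMPs and 48.4 in P2+ CMPs (log2 ratio 0.77).

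Orc1, the largest subunit of the origin recognition complex (chr4:108579423-108614833), was at 31.2 and 38.5 CPM in P2- and P2+ MEPs and 28.7 and 13.2 CPM in P2- and P2+ CMPs. The P2+ CMPs were 2.18-fold lower than P2- CMPs (log2 ratio -1.13, interval -1.31 to -0.94) and 2.92-fold lower than P2+ MEPs (log2 ratio -1.55). The highest single P2+ CMP was at 74.6 CPM, against 161, 225.2 and 166 CPM in the other populations in the order above. After thinning, an Orc1 read was present in 57.1% and 44.7% of P2- and P2+ MEPs and in 44.4% and 38.1% of P2- and P2+ CMPs. The top cell held between 9.32% and 19.9% of the Orc1 reads of a population. Without the top cells, the log2 ratio in CMPs was -1.08.

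Cdc45 (0.55) and Gins2 (0.54) stood just under the 1.5-fold rule in CMPs and were above it without the top cells (0.60 and 0.69). The lowest log2 ratios after Orc1 were Rfc1 (-0.33), Gins1 (-0.30), Orc6 (-0.24) and Pole (-0.22). The 6 genes for helicase activation had a summed log2 ratio of 0.26 in P2+ CMPs (interval 0.22 to 0.30) and -0.21 in P2+ MEPs (interval -0.25 to -0.18), each against its P2- counterpart. In either comparison 0 of them were called, against 23.6% of all genes in CMPs and 25.4% in MEPs. The nucleotide supply genes were at 0.28 in CMPs and -0.06 in MEPs. Whether P2 status acts differently in the compartments was not tested.

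Comparing the CMPs with the MEPs sets the earlier compartment against the later one. In P2- cells the median log2 ratio of CMPs over MEPs was -0.07, against -0.00 over all genes. Rfc1 was called higher (1 of 42, against 22.7% of all genes), and Cdt1, Mcm10, Cdc45 and Rrm2 were called lower (4 of 42, against 16.4%), while 39.1% of all genes were called in either direction. Of these calls, Cdc45 was lost with DESeq2 size factors (log2 ratio -0.56), Cdc45 and Rrm2 with equal weight for every cell (-0.52 and -0.56) and Rfc1 per ERCC read (0.15). Cdt1, the loading factor for the MCM helicase (chr8:122568015-122573554), was at 251.2 and 259.4 CPM in P2- and P2+ MEPs and 133 and 183 CPM in P2- and P2+ CMPs. It was 1.89-fold lower in P2- CMPs than in P2- MEPs (log2 ratio -0.92, interval -0.98 to -0.85), with a median cell of 86.99 CPM against 238.01. Mcm10 was at 138 CPM in P2- MEPs and 82.6 in P2- CMPs, and Cdc45 at 94.6 and 59.0. Rrm2 was at 464 and 396 CPM in P2- and P2+ MEPs and 290.3 and 270.9 CPM in P2- and P2+ CMPs. The summed log2 ratio of the 4 origin licensing genes was -0.43 in P2- cells (interval -0.47 to -0.39) and -0.50 in P2+ cells (interval -0.53 to -0.47), under the 1.5-fold rule. Of the 4 genes, 1 was called lower in each, Cdt1 in P2- cells and Orc1 in P2+ cells, against 16.4% and 18.2% of all genes.

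Of the 4 origin licensing genes in P2- cells, Cdt1 was at -0.92 and Cdc6 at -0.55. Orc1 was at -0.12 (interval -0.27 to 0.04) and Orc6 at 0.09. Their sum was 557 CPM in P2- MEPs and 412 in P2- CMPs, and most of this difference was that of Cdt1.

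Among the 6 genes of the clamp and its loader, 1 was called higher in CMPs in each comparison, Rfc1 in P2- cells and Rfc4 in P2+ cells. Of all genes, 22.7% were called higher in P2- cells and 16.5% in P2+ cells. Rfc1, the large subunit of the loader, was at 158 and 203 CPM in P2- and P2+ MEPs and 250 and 198 CPM in P2- and P2+ CMPs. In P2- cells the 4 highest log2 ratios of CMPs over MEPs were all of loader subunits, namely Rfc1 (0.66), Rfc3 (0.51), Rfc5 (0.41) and Rfc2 (0.32). Pole (0.28) came next. The clamp and loader genes in sum had a log2 ratio of 0.23 (interval 0.21 to 0.26) in P2- cells and 0.22 (interval 0.20 to 0.24) in P2+ cells. The clamp gene Pcna was at -0.18 in P2- cells and 0.14 in P2+ cells, and Rfc1 was at -0.03 in P2+ cells. These groups of subunits were noticed after their values were seen.

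In P2+ cells the median log2 ratio of CMPs over MEPs was 0.06, against -0.06 over all genes. Fen1 and Rfc4 were called higher (2 of 42, against 16.5% of all genes) and Orc1 lower (1 of 42, against 18.2%), and 34.8% of all genes were called in either direction. Rfc4 was at 81.7 CPM in P2+ MEPs and 133 in P2+ CMPs (log2 ratio 0.70, interval 0.63 to 0.77), a call that was lost with DESeq2 size factors (0.45) and with equal weight for every cell (0.53). Fen1 had 193 reads in P2+ CMPs and 38 in P2+ MEPs (log2 ratio 2.14, interval 1.63 to 2.68). Of the 3 RPA genes 0 were called, with a summed log2 ratio of 0.42 and with Rpa2 at 0.49, Rpa1 at 0.47 and Rpa3 at 0.13. Pold1 was at 0.42. Orc6 (-0.56), Rrm2 (-0.55) and Cdt1 (-0.50) were just within the 1.5-fold rule, followed by Mcm5 (-0.37). The direction of the median and of the sum in this comparison depended on scaling, and with DESeq2 size factors they were -0.03 and -0.06.

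Across the 4 comparisons, the median size of the log2 ratio was 0.20 for the replication genes in each, against 0.31 over all genes in both P2 comparisons, 0.44 in P2- cells and 0.40 in P2+ cells. The comparisons share populations and are not independent. More abundant genes have less counting error, and the 42 genes were not matched to others on abundance.

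Other genes of replication and its control were counted in the same way. Of 41 further replication genes, 40 passed the filter, and 3 were called higher and 3 lower in P2+ MEPs, and 3 and 4 in P2+ CMPs. CMPs against MEPs gave 2 higher and 4 lower in P2- cells and 3 and 4 in P2+ cells. Each of these totals is a smaller share of the list than the 25.4%, 23.6%, 39.1% and 34.8% of all genes called in either direction. Orc5, another origin recognition subunit, was at 115 and 50.6 CPM in P2- and P2+ MEPs and 60.8 and 36.2 CPM in P2- and P2+ CMPs. Dut, which removes dUTP, was at 1076, 789, 623 and 530 CPM. Among 19 genes of E2F and cyclin E/A control, Ccne1, the cyclin of S phase entry, was at 214.5 and 145 CPM in P2- and P2+ MEPs and 78.8 and 73.1 CPM in P2- and P2+ CMPs, whereas its partner Cdk2 was at 81.1, 107, 156 and 181 CPM. E2f1 was at 41.6, 39.97, 21.3 and 44.3 CPM and thus lowest in P2- CMPs. Other E2F genes were highest there, namely E2f2 (26.5 CPM), E2f6 (102.8), E2f7 (37.4) and E2f8 (57.4). In this list of 19, 3 genes were called higher and 0 lower in P2+ MEPs, 2 and 4 in P2+ CMPs, 6 and 3 in CMPs against MEPs in P2- cells, and 4 and 5 in P2+ cells. The shares of all genes called are those just given.

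Single cells differed far more than populations. The summed CPM of the 42 genes per cell had a median of 8063 in P2- MEPs (range 4700 to 11511) and 8288 in their P2+ counterparts (4530 to 11435). In CMPs the median was 7464 (P2-, range 2543 to 12519) and 8453 (P2+, range 3739 to 12832). The medians lay within the range of every population. The SD over cells was 19.4% and 20.6% of the mean in P2- and P2+ MEPs and 32.6% and 28.8% in P2- and P2+ CMPs, and it was 19.1%, 21.3%, 32.1% and 28.7% after thinning to equal depth. The 2 CMP populations thus spread more widely than the MEPs at equal depth. In thinned cells, a median of 38 and 36 of the 42 genes had a read in P2- and P2+ MEPs and of 36 and 37 in P2- and P2+ CMPs, and the lowest cells had 33, 28, 17 and 25.

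**Figure D3:**
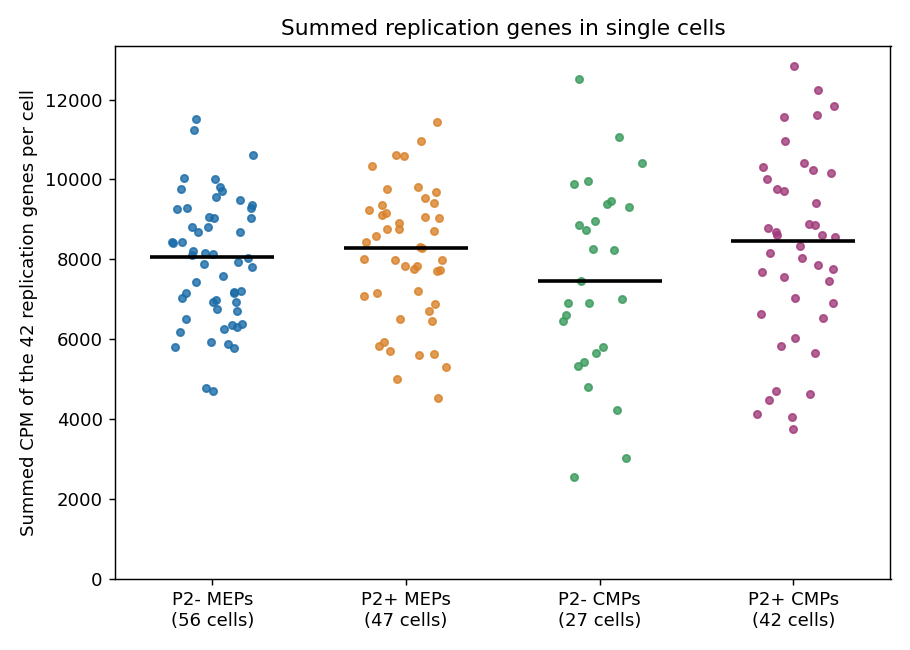
Summed CPM of the 42 replication genes in each cell, with a line at the median of each population. The medians lie between 7464 and 8453 CPM, and cells under 4530 CPM, the lowest MEP, are all CMPs.

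No MEP was below 4530 CPM or above 11511 CPM, whereas 3 of 27 P2- CMPs and 4 of 42 P2+ CMPs were below this range and 1 and 5 above it. The summed level of the 22 mitosis genes was used to describe these cells. Pooled, it was at 4660 and 4014 CPM in P2- and P2+ MEPs and 4455 and 3763 CPM in P2- and P2+ CMPs. Of the 22 genes, 0 were called higher and 5 lower in P2+ MEPs, 1 and 4 in P2+ CMPs, 2 and 2 in CMPs against MEPs in P2- cells, and 4 and 4 in P2+ cells. The shares of all genes called higher and lower were 16.4% and 8.96% in P2+ MEPs and 10.3% and 13.3% in P2+ CMPs. For CMPs against MEPs they were 22.7% and 16.4% in P2- cells and 16.5% and 18.2% in P2+ cells. The 4 low P2+ CMPs had mitosis sums between 9299 and 11972 CPM, all above the highest MEP at 9257 CPM. The 3 low P2- CMPs were not alike. Their replication sums of 2543, 3011 and 4215 CPM stood beside mitosis sums of 9018, 331.2 and 4611 CPM. The cell with the mitosis sum of 331.2 CPM had reads of 17 of the 42 genes after thinning and held 791091 reads on mouse genes.

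Over the cells of each population, replication and mitosis genes ran in opposite directions as shares of reads. Spearman's rho between the sums was -0.70 and -0.66 over 56 P2- and 47 P2+ MEPs, and -0.54 and -0.44 over 27 P2- and 42 P2+ CMPs. Without the 2 cells farthest from the median mitosis sum, rho was -0.76, -0.64, -0.54 and -0.37. These are descriptions over cells of 1 pool, and both sums are shares of the same reads. Scaled per ERCC spike-in read, rho was 0.28 and 0.37 in P2- and P2+ MEPs and -0.13 and -0.17 in P2- and P2+ CMPs. On this scale both sums have the same divisor in each cell, which by itself can raise rho. The replication sum had a rho of 0.69, 0.70, 0.89 and 0.77 with the 41 further replication genes and of 0.62, 0.35, 0.47 and 0.49 with the E2F and cyclin list. With the number of reads on mouse genes, rho was between -0.17 and 0.30.

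**Figure D4:**
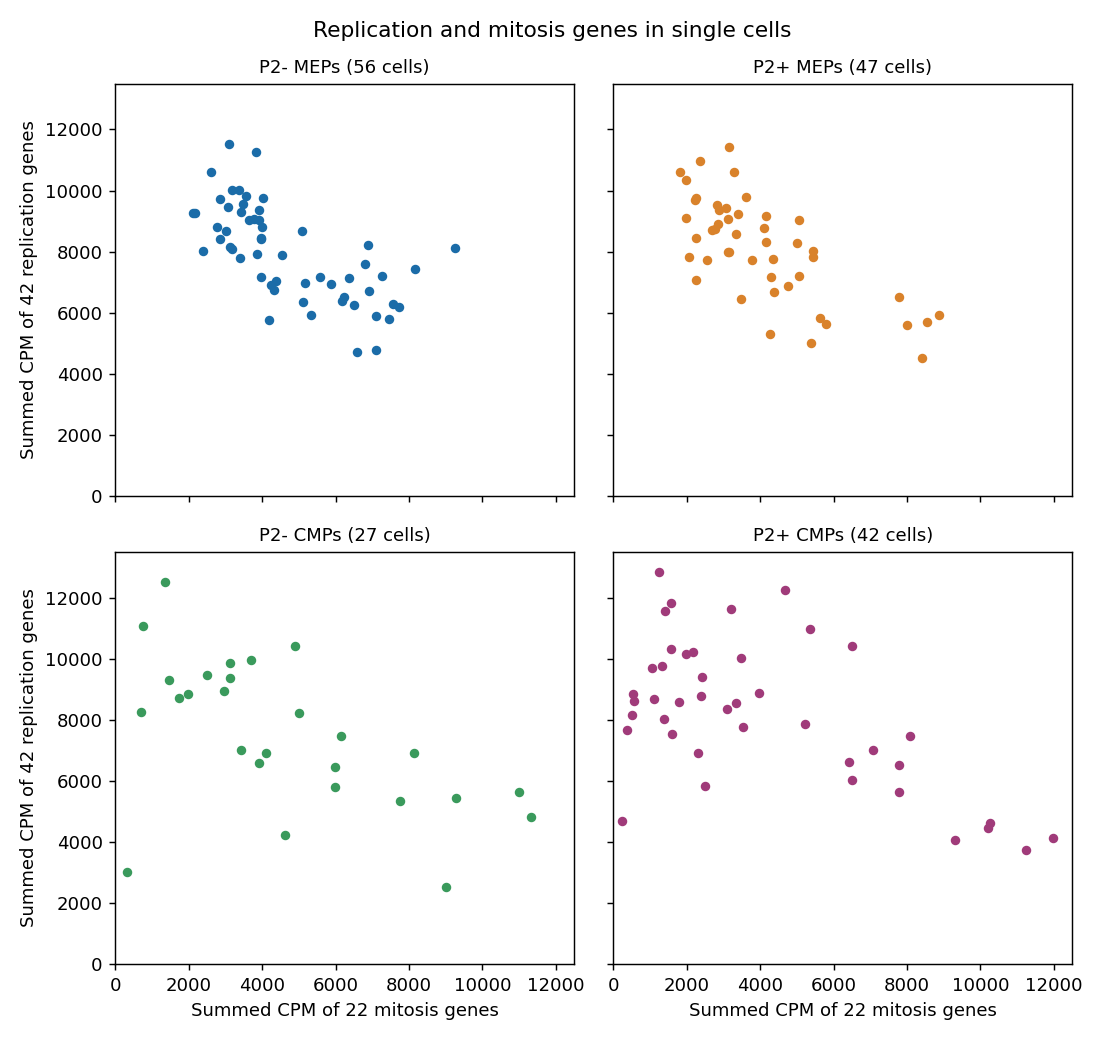
Summed CPM of the 42 replication genes against that of 22 mitosis genes in each cell, by population. In each panel replication sums tend to be lower where mitosis sums are higher, with exceptions, and rho runs from -0.70 in P2- MEPs to -0.44 in P2+ CMPs, and the CMP panels reach lower mitosis sums than the MEP panels.

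Some CMPs were lower in mitosis genes than any MEP. The lowest MEP had a mitosis sum of 1821 CPM, and 6 of 27 P2- CMPs (22.2%) and 15 of 42 P2+ CMPs (35.7%) were below it. Their median replication sum was 9015 CPM in P2- CMPs (range 3011 to 12519) and 8684 CPM in P2+ CMPs (range 4689 to 12832). The first of these ranges begins with the cell that had reads of 17 of the 42 genes. At the other end, the 3 P2- CMPs above the mitosis sum of every MEP had replication sums between 4805 and 5649 CPM, and the 5 such P2+ CMPs between 3739 and 4637 CPM. These cells were singled out after their values were seen.

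Taken gene by gene, rho with the mitosis sum was below 0 in all 4 populations for 24 of the 42 genes, above 0 in all 4 for 0 genes and mixed for 18. Cdc6, which loads the MCM helicase, was lowest with a mean rho of -0.48 over the populations (from -0.68 to -0.21), followed by Mcm2 (-0.39), Rfc3 (-0.36), Rpa2 (-0.35) and Gins2 (-0.34). Nearest to 0 were Pole2 (-0.01), Rrm1 (0.01), Rpa3 (0.01), Rfc5 (-0.02) and Rfc4 (0.02). Summed, the polymerase and primase genes had a rho of -0.33 and -0.51 in P2- and P2+ MEPs and -0.20 and -0.20 in P2- and P2+ CMPs. The summed MCM genes were at -0.41, -0.32, -0.57 and -0.69 in the same order, and the nucleotide supply genes at -0.42, -0.42, -0.29 and -0.02.

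**Figure D5:**
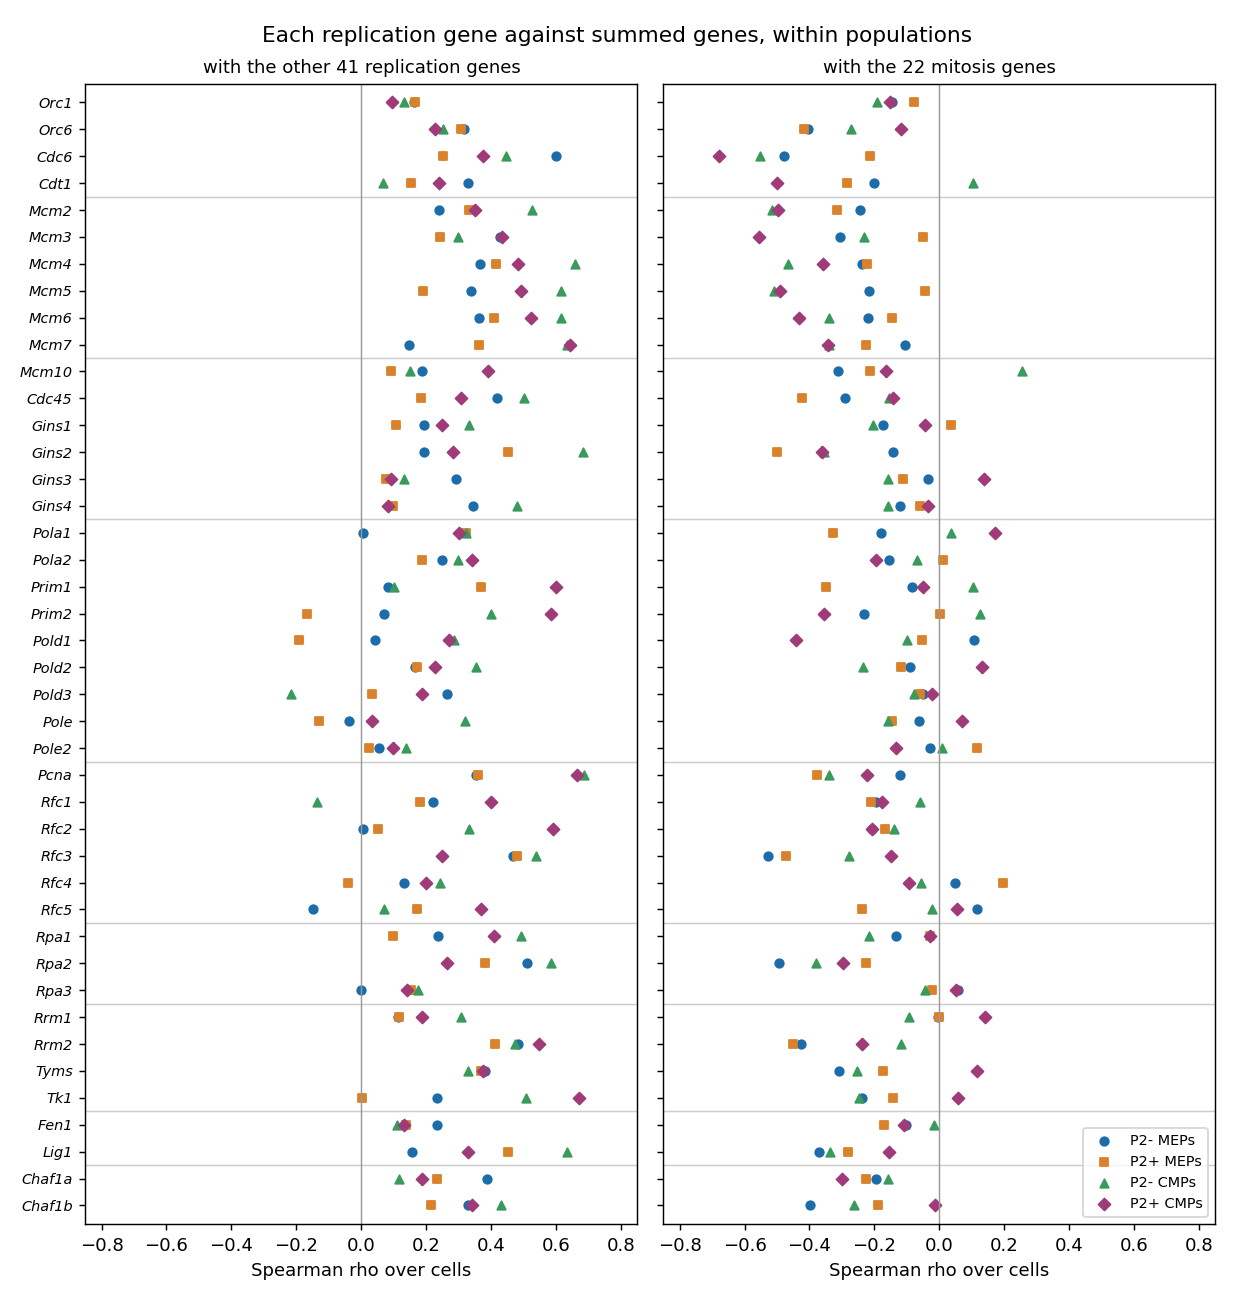
Spearman's rho over the cells of each population between each replication gene and the sum of the other 41 (left) or of 22 mitosis genes (right), after thinning. Symbols lie mostly right of 0 in the left panel and left of 0 in the right panel, and Pcna has the highest mean rho with the other genes, 0.52.

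The 42 genes went together only loosely from cell to cell. The rho of a gene with the sum of the other 41 had a median of 0.23 and 0.18 in P2- and P2+ MEPs and 0.33 and 0.32 in P2- and P2+ CMPs, and it was above 0 for 39, 38, 40 and 42 genes. Pcna had the highest mean rho over the populations (0.52), followed by Mcm4 and Rrm2 (0.48 each), Mcm6 (0.48) and Mcm7 (0.45). Pole (0.05), Pold3 (0.07) and Pole2 (0.08) had the lowest. The mean rho had a median of 0.29 over the 14 genes with an E2F word in the promoter windows and of 0.28 over the 21 without, so the words did not separate them. With the mitosis sum these medians were -0.24 and -0.14, with ranges that overlapped.

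Outside the lists, the genes most like the sum of the 42 by mean rho over the populations were Ung (0.55), which removes uracil from DNA, Mybl2 (0.46), a cell cycle transcription factor, the Pcna copy Pcna-ps2 (0.45), which shares sequence with a gene of the sum, and Hells (0.43), a chromatin remodeller. Siva1, Rbmxl1, Tcf19, Ogg1, Fam111a and Wdr76 followed, with values from 0.39 to 0.35. Over all 8593 genes outside the lists the median was -0.01. Ung was at 79.8 and 69.7 CPM in P2- and P2+ MEPs and 74.6 and 111 CPM in P2- and P2+ CMPs.

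The even level of replication genes holds for shares of mouse RNA. Against the ERCC spike-ins, RNA added to each well, replication genes had 504 and 340.4 reads per 1000 ERCC reads in P2- and P2+ MEPs and 328.9 and 463 in P2- and P2+ CMPs. All mouse genes moved with them, at 63.1, 41.1, 44.2 and 55.5 reads per ERCC read. On this scale the median of all genes was shifted by a log2 ratio of -0.60 in P2+ against P2- MEPs and 0.30 in P2+ against P2- CMPs, and the median of the 42 genes was -0.56 and 0.51. P2- MEPs ranged from 229.4 to 1166 reads of replication genes per 1000 ERCC reads and P2+ MEPs from 115 to 761. P2- CMPs ranged from 89.0 to 759 and P2+ CMPs from 162 to 947. RNA per cell and the amount of spike-in that reached a well cannot be told apart.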

How the data were processed

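Counts of 175 single-cell libraries were used. The authors trimmed the reads (Trimmomatic 0.36), aligned them to GRCm38 with the ERCC sequences (STAR 2.4.2a) and counted them on GENCODE exons without regard to strand (HTSeq 0.6.1p1), and they deposited raw counts per gene and cell. The authors also deposited the percent of unmapped reads, used for cell filtering. Cells under 250000 reads, over 25% unmapped or over 15% ERCC reads were removed. HTSeq tally entries, which name no gene, were left out of totals. They were 25.6% (ambiguous) and 7.40% (on no gene) of uniquely mapped reads.

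Pooled CPM, exact Poisson intervals and exact conditional binomial intervals of ratios were computed with Python 3.11.15 and scipy 1.17.1. A population at 0 reads was set to 3. Thinning to 100000 reads was without replacement. The study tested genes with DESeq2 across cells. This was not repeated, since cells of 1 pool are not replicates, and DESeq2 1.42.0 served only for size factors in an alternative scaling.

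The genes and lists were chosen with earlier results of these data known. Named in each comparison were the 5 highest and 5 lowest replication genes, in other lists up to 3 per direction, and outside them the 10 genes most like the sum. Marker lists not described in the text gave these sums, in the order P2- and P2+ MEPs, then P2- and P2+ CMPs. Granulocyte and monocyte markers were at 16.3, 66.6, 435 and 700 CPM, stem and multipotent markers at 11.7, 118, 617 and 963, mast and basophil markers at 35.5, 215, 247 and 136, and immediate early genes at 438, 1051, 932 and 1007. Lymphoid markers were at 0.03, 0, 3.22 and 0 CPM, macrophage markers at 1.18, 8.74, 6.87 and 8.34, hepatocyte markers at 10.6, 10.3, 24.7 and 13.1, and endothelial markers at 1.67, 22.8, 44.9 and 34.9. Annotation was GENCODE vM21, a later release than the one used for counting. The 42 gene identifiers matched apart from their version.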

Additional observations from a re-analysis of the deposited data

Results flagged for a closer look

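Fen1 was called in opposite directions in the comparisons of P2+ with P2- cells. Its log2 ratio was -1.26 in MEPs and 1.05 in CMPs. Both are past the 1.5-fold rule, lower in MEPs and higher in CMPs, and the difference between these was not tested. It rested on 88, 38, 47 and 193 reads, the first 2 in P2- and P2+ MEPs and the others in P2- and P2+ CMPs. A share of 84.2% of its exon bases overlaps other genes on the opposite strand, and the part of this in the result was not tested. Without the cell of highest CPM in each population the log2 ratios were -1.44 and 1.04.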

How the results depend on the processing

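Comparisons are in the order P2+ against P2- MEPs, P2+ against P2- CMPs, CMPs against MEPs in P2- cells and in P2+ cells. Summed log2 ratios were 0.05, 0.16, -0.10 and 0.01, medians 0.06, 0.18, -0.07 and 0.06. DESeq2 size factors gave sums of 0.075, 0.15, -0.14 and -0.061 and, in P2+ cells, a median of -0.034 with 1 gene higher and 3 lower. Equal weight for every cell gave sums of 0.021, 0.13, -0.084 and 0.023, and 1 gene higher in P2+ cells. Without mitochondrial genes and Rn18s-rs5 in the denominator the sums were 0.089, 0.19, -0.046 and 0.050. Leaving out the cell of highest CPM gave sums of 0.20 in CMPs, where 5 genes were then higher, and -0.14 in P2- cells. Without the cell of conflicting label the sums there were 0.18 and -0.11. Per ERCC read the sums were -0.57, 0.49, -0.62 and 0.44 and the medians -0.56, 0.51, -0.59 and 0.49, with 0, 14, 0 and 13 genes higher and, in MEPs and in P2- cells, 18 and 21 lower, against 25.3% and 36.1% of all genes higher in CMPs and in P2+ cells and 51.6% and 45.8% lower in MEPs and in P2- cells. The median of all genes was then at -0.60, 0.30, -0.52 and 0.38. With every deposited cell no sum, median or count moved beyond its limits. Dropping the gene filter could not change these values, since all 42 genes passed it.

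The rho of replication with mitosis genes, examined under alternatives chosen after seeing the data, was 0.28, 0.37, -0.13 and -0.17 per ERCC read in P2- and P2+ MEPs and then P2- and P2+ CMPs. It stayed within 0.1 of the reported value without thinning, without 2 cells and by mean ranks. Of 14 calls of single genes, 2 were lost with DESeq2 size factors (Cdc45 in P2- cells and Rfc4 in P2+ cells) and 4 gained (Cdc6 and Pole2 in P2- cells, Orc6 and Rrm2 in P2+ cells), 3 were lost with equal weight for every cell (these and Rrm2 in P2- cells) and 1 gained (Pole2 in P2- cells), 2 were lost and 56 gained per ERCC read (lost were Pola1 in MEPs and Rfc1 in P2- cells), and 0 changed direction under any setting. Intervals cover counting error only and do not include variation between litters. No paired analysis was possible because no population has a replicate.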
